A study of Mus musculus with 8 samples.

Results

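The genes described here are 7 enzymes of heme synthesis (Alas2, Alad, Uros, Urod, Cpox, Ppox and Fech) and 2 mitochondrial carriers that serve it (Slc25a37, known as mitoferrin 1, and Slc25a38), 9 of the 24421 genes in a count table of mouse bone marrow neutrophils. They were chosen by name from the heme pathway, after earlier results of these data had shown genes of red cell precursors higher in Padi4-/- (Padi4 KO) than in WT libraries. The difference in level between the genotypes is therefore given as a description with no test. The earlier results had also shown summed erythroid genes falling with R848 in WT and rising in KO. The tests of response below are therefore no independent evidence of direction. All 9 had counts in both unstimulated WT libraries and all 9 were among the 12254 genes tested, so none entered through the KO libraries alone. The libraries fell into 4 groups of 2: WT and Padi4 KO neutrophils, each unstimulated or incubated with R848, a TLR7 agonist, at 1 µg/ml for 6 hours. All came from C57BL/6 mice of 8 weeks, and the KO mice carried a deletion of Padi4 exon 1 that the study's methods tie to no particular cell type. Neutrophils had been isolated from female mice with magnetic beads. The titles of the unstimulated samples read 0 h, whereas the treatment description has these cells left without stimulus over the same 6 hours. If the titles hold, every R848 response below also includes the time in culture, and stimulus and culture cannot be told apart. The labels do not say whether the 2 libraries of a group came from separate mice, and the methods speak of samples analysed in duplicate. The duplicates differed by more than counting error in all 4 groups, with a chi-square over its degrees of freedom of at least 1.05, and the most in WT with R848 (1.67), the group on which the WT responses rest. The p-values measure the spread between these libraries, which may be technical.

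Heme is an iron-containing ring that carries oxygen in hemoglobin and electrons in cytochromes. Its synthesis starts and ends in the mitochondrion, with the middle steps in the cytosol. ALAS, the rate-limiting enzyme, joins glycine to succinyl-CoA. ALAS1 is the form found in most cells and ALAS2 the form of red cell precursors. ALAD, UROS and UROD act in the cytosol, where the ring is built and trimmed, CPOX and PPOX oxidise it back in the mitochondrion, and FECH inserts the iron. SLC25A37 brings iron into the mitochondrion, and SLC25A38 brings in glycine. Erythroblasts express this pathway at very high levels, while a mature neutrophil needs comparatively little heme, for the cytochrome of its NADPH oxidase and for myeloperoxidase.

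Depth was low. Counts on genes ran from 562446 to 1177972 per library, and the KO libraries held 1.66 times as many as the WT libraries on average. A count of 3 in a library corresponded to 2.18 to 6.11 CPM, the count scaled to a common library size with TMM factors. The targeted gene had 590 and 527 counts in unstimulated WT, 166 and 234 in WT with R848, 40 and 54 in unstimulated KO, and 34 and 21 in KO with R848. Padi4 was thus lower in all 4 KO libraries than in any WT library, and its remaining counts can stem from exons outside the deletion. Neutrophil marker genes summed to between 106600 and 207300 CPM in the 8 libraries, the largest sum of any marker list in every library. In the erythroid list, 6 hemoglobin genes were listed at 0 in all 8 libraries. Other erythroid genes did have counts, such as Slc4a1 with 535 and 544 in KO with R848 and 2 and 5 in WT with R848. The hemoglobin zeros are therefore not read as absence of red cell precursor RNA, and their cause was not tested.

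RefSeq promoters (GRCm38.p6) were at hand for 7 of the 9 genes. The letters AGATAA or TGATAA or AGATAG or TGATAG, which the erythroid factor GATA1 can bind, were searched on both strands of the 250 bases before each start, along with CCACCC, the core of a KLF1 site. These genes have 9 windows, as Alad and Uros have 2 starts each. The GATA letters stood in 3 of the 9 windows (1 each of Alas2, Uros and Cpox) and CCACCC in 1 of 9 (Alas2), where it occurred 3 times with shared letters. Of 32851 mouse promoters of the same length, 26.5% held the GATA letters, 28.1% held CCACCC and 5.8% held both. The windows with GATA letters are shown because these genes are read below beside genes of red cell precursors. Capitals mark the searched letters on either strand, and a match is a description of the sequence, not a binding site.
Alas2, chrX:150547167-150547392, + strand: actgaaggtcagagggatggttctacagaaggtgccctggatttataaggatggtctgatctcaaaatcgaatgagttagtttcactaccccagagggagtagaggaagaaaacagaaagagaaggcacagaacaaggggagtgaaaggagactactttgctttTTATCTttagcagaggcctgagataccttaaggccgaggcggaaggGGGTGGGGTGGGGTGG
Cpox, chr16:58669958-58670207, + strand: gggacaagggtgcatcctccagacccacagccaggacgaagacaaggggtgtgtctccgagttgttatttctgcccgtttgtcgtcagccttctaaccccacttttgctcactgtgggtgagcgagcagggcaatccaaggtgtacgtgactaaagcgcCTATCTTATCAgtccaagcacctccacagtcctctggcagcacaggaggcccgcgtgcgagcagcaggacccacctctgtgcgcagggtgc
Uros, chr7:133702599-133702750, - strand: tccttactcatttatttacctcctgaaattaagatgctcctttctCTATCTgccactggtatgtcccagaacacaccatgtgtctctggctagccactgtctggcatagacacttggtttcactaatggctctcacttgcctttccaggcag
The Alas2 window lies just upstream of the gene and ends 18 bases into its annotated first exon, with the GATA letters starting at -86 from the RefSeq start. Its CCACCC matches, starting at -40, -35 and -30, fall in those exon bases. The Cpox window ends before the annotated gene, and its 2 GATA matches, at -91 and -86, share letters. The Uros window lies inside the gene, before the downstream of its 2 RefSeq starts, and again ends 18 bases into an exon. Its match is at -205, and a further match at -68 falls in the exon and is not shown.

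Alas2, the erythroid first enzyme (chrX:150547375-150570638, + strand, GRCm38), had 14 counts or fewer per library outside one group. It had 3 and 3 counts in unstimulated WT, 3 and 1 in WT with R848, 7 and 14 in unstimulated KO, and 51 and 44 in KO with R848. KO libraries lay above WT libraries under both conditions, and KO with R848 stood far above the other 3 groups. Mean levels were 4.91 ± 0.383, 3.94 ± 3.07, 9.04 ± 1.59 and 42.9 ± 3.45 CPM in the same order (SD, n = 2 each). R848 raised Alas2 in KO by 2.19 on the log2 scale (SE 0.32; adjusted p = 7.24e-11, quasi-likelihood test of edgeR, Benjamini-Hochberg method), which is a 4.62-fold ratio of pooled counts with a 95% counting interval of 2.86 to 7.81. In WT the change was -0.36 (SE 0.91; adjusted p = 0.853, edgeR). The difference between the KO and WT responses was 2.55 (SE 1.00) and missed the threshold (adjusted p = 0.167, edgeR), with 4 to 6 counts behind each WT group. Intervals from counts cover counting error only. Alas1, the form of most cells, behaved otherwise: it had 103 and 88 counts in unstimulated WT, 344 and 357 in WT with R848, 125 and 231 in unstimulated KO, and 548 and 479 in KO with R848. R848 raised Alas1 by 2.09 in WT (SE 0.12; adjusted p = 1.36e-63, edgeR) and by 1.57 in KO (SE 0.10; adjusted p = 2.8e-49, edgeR). Its KO response was smaller than its WT response, with a log2 difference of -0.53 (SE 0.17; adjusted p = 0.0506, edgeR).

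The cytosolic enzymes fell in WT cells given R848 and did not pass the test in KO cells. Alad (chr4:62509169-62519918, - strand), the second enzyme, had 9 and 8 counts in unstimulated WT and 0 and 0 after R848, against 49 and 74 in unstimulated KO and 58 and 57 after R848. All 4 KO libraries lay above all 4 WT libraries, and Alad was the member listed at 0 in a whole group. With a floor of 3 counts over the 2 libraries of the group, Alad was at least 4.88-fold lower after R848 in WT (adjusted p = 4.81e-05, edgeR). The 95% counting interval of that ratio, 0 against 17 counts, is wider and reaches 0.281. In KO it changed by -0.07 (SE 0.20; adjusted p = 0.844, edgeR), from 54.6 ± 1.203 to 52.0 ± 0.606 CPM. With the same group floor the responses differed at least 4.67-fold (adjusted p = 0.00135, edgeR). With it, the KO level after R848 was at least 18.3-fold higher than that of WT, where the counting interval starts at 14.6. Without stimulus Alad was 1.96 higher in KO on the log2 scale (SE 0.32).

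Uros (chr7:133686243-133710072, - strand), which closes the ring, had 8 and 6 counts in unstimulated WT, 1 and 1 in WT with R848, 19 and 35 in unstimulated KO, and 31 and 32 in KO with R848. The WT ratio after R848 was 0.166 with a counting interval of 0.0183 to 0.722 (log2 change -2.50, SE 0.88; adjusted p = 0.0213, edgeR). The KO change was 0.25 (SE 0.28; adjusted p = 0.536, edgeR), and the responses differed by 2.76 (SE 0.92; adjusted p = 0.0733, edgeR). The WT call was lost in DESeq2 (adjusted p = 0.131) and without WT unstimulated replicate 1 or either WT R848 library, and the difference in 7 of 8 fits that left out a library. Urod (chr4:116989965-116994413, - strand), which trims the ring's side chains, had 20 and 17 counts in unstimulated WT, 3 and 6 in WT with R848, 46 and 79 in unstimulated KO, and 72 and 70 in KO with R848. Like Uros, Urod was highest in the 4 KO libraries and lowest in the 2 WT libraries with R848. Its WT level went from 30.1 ± 1.11 to 8.37 ± 3.19 CPM and fell by 1.81 on the log2 scale (SE 0.48; adjusted p = 0.00123, edgeR), while in KO it changed by 0.22 (SE 0.18; adjusted p = 0.419, edgeR). The difference of response was 2.02 (SE 0.52; adjusted p = 0.00644, edgeR), and 1.44 (adjusted p = 0.285, edgeR) without WT R848 replicate 1. Without stimulus, KO levels exceeded WT levels by 1.05 (SE 0.42) for Uros and 0.87 (SE 0.26) for Urod. After R848 these gaps were 3.81 (SE 0.65) and 2.89 (SE 0.37).

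The last enzymes, back in the mitochondrion, were less alike. Cpox (chr16:58670292-58717636, + strand) showed the widest gap between genotypes of all 9 members without stimulus. It had 15 and 1 counts in unstimulated WT, 2 and 4 in WT with R848, 122 and 176 in unstimulated KO, and 162 and 185 in KO with R848. KO levels of 133 ± 7.23 and 157 ± 18.5 CPM stood against 12.5 ± 15.2 and 5.58 ± 2.13 CPM in WT, a log2 gap of 3.32 (SE 0.27) without stimulus and 4.75 (SE 0.33) after R848. The unstimulated gap was 6.14 without WT replicate 1 and 2.501 without WT replicate 2, so its size rests on which WT library is used. The unstimulated WT duplicates disagreed beyond counting error (exact binomial test, two-sided, p = 0.000668; 0.0234 after Benjamini-Hochberg adjustment over 35 duplicate comparisons). The WT response of -1.18 (SE 0.64; adjusted p = 0.189, edgeR) and the KO response of 0.25 (SE 0.13; adjusted p = 0.141, edgeR) both missed the threshold, as did their difference of 1.43 (SE 0.66; adjusted p = 0.285, edgeR). Without the WT library of 15 counts, the WT response became 1.64 and the difference -1.39, so both signs rest on that library.

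Fech, which inserts the iron, had 8 and 9 counts in unstimulated WT, 0 and 3 in WT with R848, 52 and 74 in unstimulated KO, and 91 and 79 in KO with R848. The WT ratio after R848 was 0.205 with a counting interval of 0.0385 to 0.709 (log2 change -2.23, SE 0.75; adjusted p = 0.0156, edgeR). In KO the Fech change was 0.46 (SE 0.18; adjusted p = 0.0324, edgeR), under 2-fold and so not called, and it was 0.085 by library size alone (adjusted p = 0.751, edgeR). The responses differed by 2.69 (SE 0.77; adjusted p = 0.0210, edgeR). Without WT R848 replicate 1, the library with 0 counts, neither was called, with a WT change of -1.23 (adjusted p = 0.341, edgeR) and a difference of 1.55 (adjusted p = 0.519, edgeR). The difference was also lost without WT unstimulated replicate 2 or KO R848 replicate 1. The KO libraries lay above the WT libraries by 1.995 (SE 0.32) without stimulus, and after R848 the pooled ratio was 27.0 with a counting interval of 9.09 to 132. With 1 library left out, the log2 gap after R848 ranged from 3.68 to 9.04. Parts of the long Fech transcript are at least 95% identical to repeats in other transcripts, so some reads may have been assigned elsewhere.

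Ppox (chr1:171275990-171281186, - strand) was the enzyme with no excess in unstimulated KO. It had 68 and 44 counts in unstimulated WT, 13 and 16 in WT with R848, 72 and 72 in unstimulated KO, and 60 and 61 in KO with R848. Levels overlapped between the genotypes without stimulus, at 90.6 ± 20.6 CPM in WT and 66.8 ± 20.6 CPM in KO. R848 lowered Ppox in WT, where it fell by 1.73 on the log2 scale (SE 0.28; adjusted p = 6.69e-09, edgeR), and the KO change was -0.23 (SE 0.18; adjusted p = 0.398, edgeR). The responses differed by 1.502 (SE 0.34; adjusted p = 0.00119, edgeR), and by 1.19 (adjusted p = 0.112, edgeR) without WT R848 replicate 1. Ppox shares 791 exon bases, 17.5% of its total, with B4galt3 on the opposite strand, and the library kit does not mark strand, so reads there cannot be told apart. B4galt3 had 84 and 80 counts in unstimulated WT, 41 and 50 in WT with R848, 78 and 139 in unstimulated KO, and 69 and 59 in KO with R848. Its difference of response was -0.09 (SE 0.26; adjusted p = 0.98, edgeR).

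**Figure D1:**
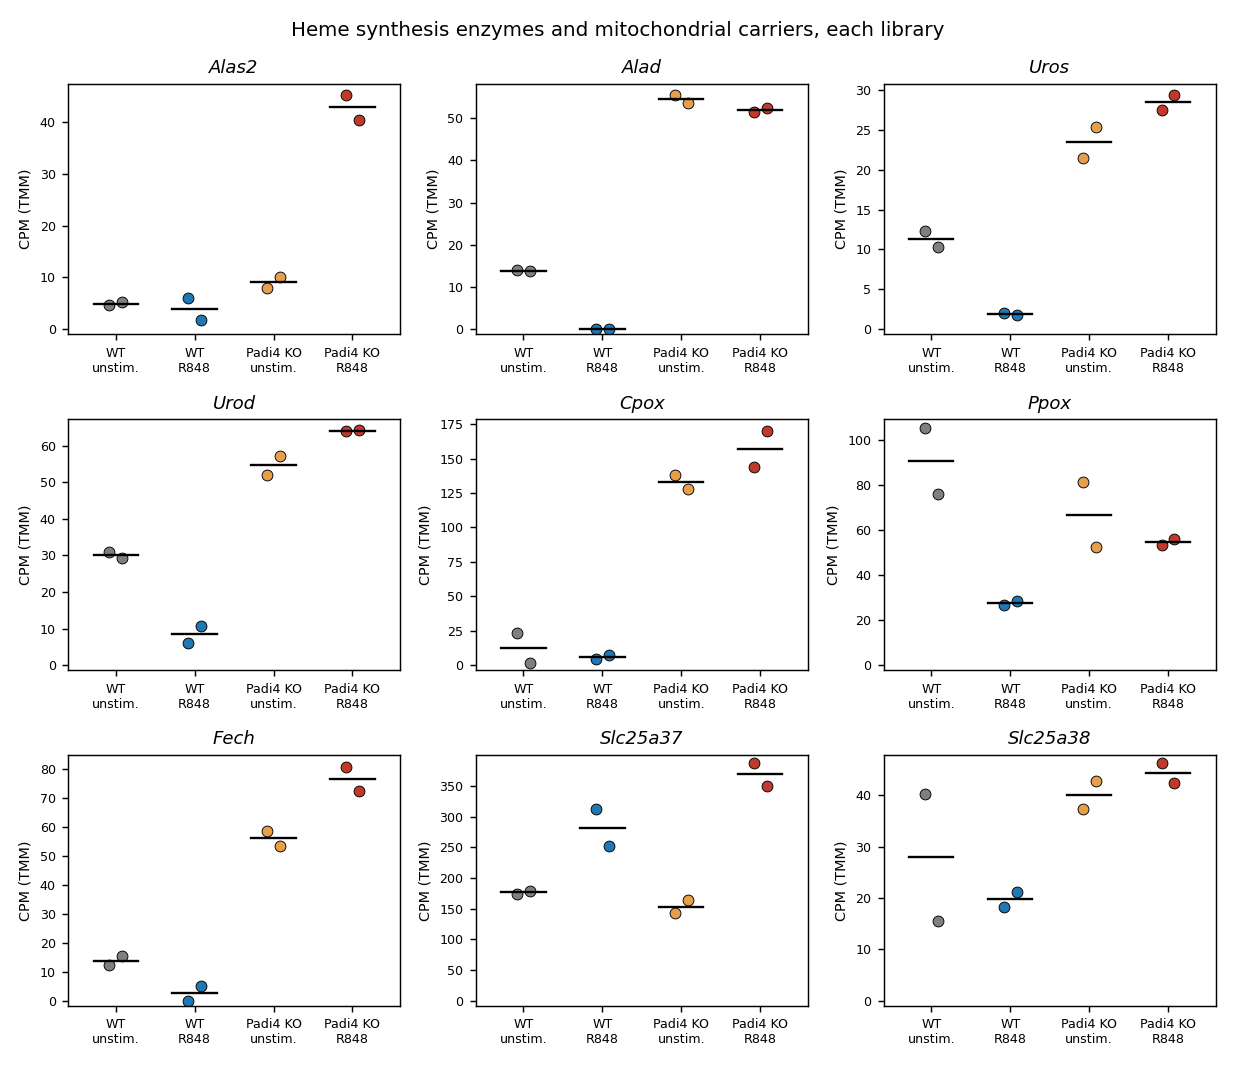
CPM of the 9 members in each of the 8 libraries, 1 panel per gene, with points for libraries and lines for group means. Alas2 was high in the 2 KO libraries with R848, the cytosolic enzymes and Fech were lowest in the 2 WT libraries with R848, and Slc25a37 was higher with R848 in both genotypes.

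The iron carrier Slc25a37 (chr14:69241848-69285112, - strand) was the most abundant member by count and followed the stimulus rather than the enzymes. It had 112 and 104 counts in unstimulated WT, 153 and 142 in WT with R848, 126 and 226 in unstimulated KO, and 436 and 381 in KO with R848. Each pair of R848 libraries lay above the unstimulated pair of its genotype. Mean levels went from 176 ± 4.53 to 282 ± 42.7 CPM in WT and from 153 ± 15.2 to 369 ± 26.3 CPM in KO. R848 raised it by 1.25 in KO (SE 0.11; adjusted p = 1.13e-29, edgeR), although by library size alone the change was 0.87, under 2-fold. The WT change of 0.67 (SE 0.14; adjusted p = 1.76e-05, edgeR) was under 2-fold. The KO response exceeded the WT response by 0.58 (SE 0.18; adjusted p = 0.0388, edgeR), but this call was lost in 7 of 8 fits that left out a library, down to 0.19 without WT R848 replicate 2 (adjusted p = 0.793). It was also lost with relative log expression factors (0.43; adjusted p = 0.258) and with library size alone (0.51; adjusted p = 0.118). Unstimulated KO was below WT by TMM, at -0.19 (SE 0.14), and above it by library size alone, at 0.10. Its paralog Slc25a28, mitoferrin 2, had 15 and 21 counts in unstimulated WT, 15 and 14 in WT with R848, 26 and 48 in unstimulated KO, and 32 and 40 in KO with R848. Slc25a28 changed by -0.10 in WT (SE 0.36; adjusted p = 0.929, edgeR) and by -0.01 in KO (SE 0.25; adjusted p = 0.998, edgeR).

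The glycine carrier Slc25a38 (chr9:120110374-120124504, + strand) had 26 and 9 counts in unstimulated WT, 9 and 12 in WT with R848, 33 and 59 in unstimulated KO, and 52 and 46 in KO with R848. The genotypes overlapped without stimulus and separated after R848, when KO exceeded WT by 1.15 (SE 0.33). Its response was -0.52 in WT (SE 0.40; adjusted p = 0.393, edgeR) and 0.12 in KO (SE 0.22; adjusted p = 0.726, edgeR), with a difference of 0.64 (SE 0.45; adjusted p = 0.597, edgeR). None of these 3 passed, and the sign of the WT response and of the difference turned without the first unstimulated WT library, to 0.35 and -0.23.

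Across the 9 members, a response was called at an adjusted p below 0.1 and a change over 2-fold. In WT, 5 of 9 were called lower (Alad, Uros, Urod, Ppox and Fech), where 10.8% of all genes were, and 0 were called higher, where 7.17% of all genes were. At an unadjusted p under 0.05, 6 members passed in edgeR (among them Slc25a37, with a change above 0) and 6 in DESeq2, where 33.1% of all genes passed in edgeR. The median log2 change of the members was -1.73, and that of all genes tested was -0.17. In KO, 2 of 9 were called higher (Alas2 and Slc25a37), where 8.07% of all genes were, and 0 lower, where 8.84% were, with a median of 0.25 for the members and -0.03 for all genes. At an unadjusted p under 0.05 in KO, 3 members passed in edgeR and 2 in DESeq2, where 37.3% of all genes passed in edgeR.

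The responses themselves differed between the genotypes for 6 of 9 members, called at an adjusted p below 0.1. Alad, Uros, Urod, Ppox, Fech and Slc25a37 all had the higher response in KO, where 3.45% of all genes did, and 0 had the lower response, where 1.26% did. The median difference was 2.02 for the members and 0.20 for all genes. That median for all genes depended on the scaling (0.04 with relative log expression factors), as did the split of all calls, with 423 higher and 154 lower by TMM against 160 and 233. With those factors 4 members were called (Alad, Urod, Ppox and Fech). DESeq2 called 0 members and gave adjusted p-values for 2, although 6 had an unadjusted p under 0.05 (8 in edgeR, where 13.4% of all genes did) and all 9 kept their sign. Without WT R848 replicate 1 the count was 1 (Alad), and without KO R848 replicate 1 it was 3 (Alad, Urod and Ppox). In WT alone, leaving out WT R848 replicate 1 left 3 calls (Alad, Urod and Ppox). Earlier results of these data had shown summed erythroid genes falling in WT and rising in KO, so these counts are no independent evidence of their direction.

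**Figure D2:**
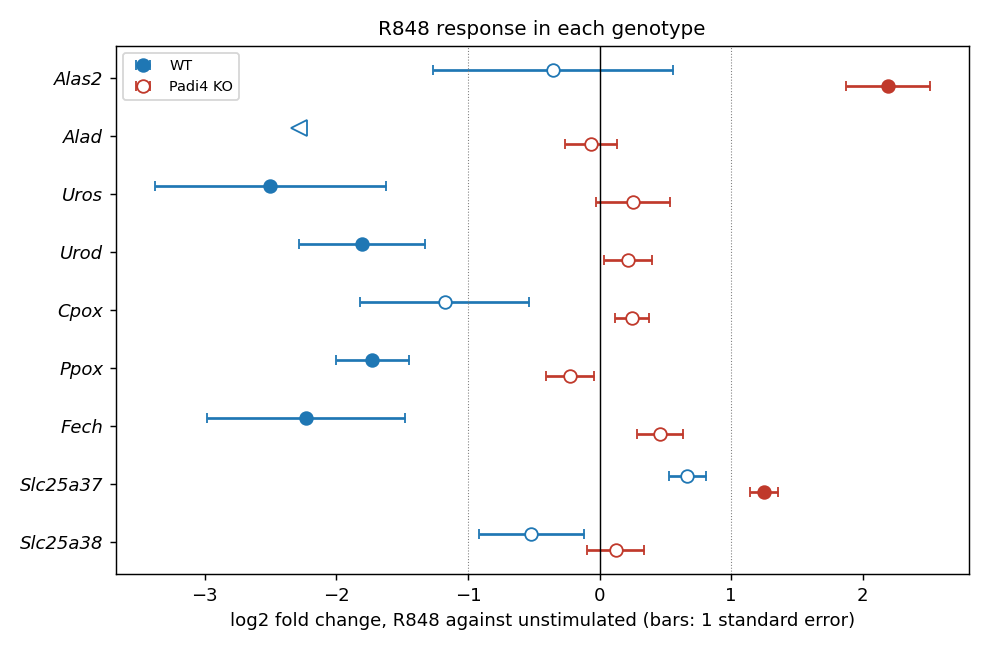
Log2 change with R848 in WT and in KO for each member, with bars of 1 SE and filled points for called responses. Alad in WT, where both R848 libraries were at 0, is drawn as an open triangle at its bound although it was called. The WT points of Uros, Urod, Ppox and Fech lie below 0 and the KO points of Alas2 and Slc25a37 above it.

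Read as KO libraries all above WT libraries with over 2-fold between means, 4 of 9 members stood higher in unstimulated KO (Alad, Uros, Cpox and Fech), where 13.4% of all genes did. None stood lower, where 4.83% of all genes did. After R848 it was 7 of 9, all but Ppox and Slc25a37, where 16.6% of all genes stood higher and 3.26% lower. Median gaps were 0.90 and 3.45 for the members and -0.03 and 0.08 for all genes. Nothing is read from these counts, because the members were chosen on this contrast. Just inside the 2-fold limit without stimulus was Uros (1.05), and just outside it were Alas2 (0.90) and Urod (0.87). After R848, Slc25a38 (1.15) was just inside and Ppox (0.99) just outside.

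Levels between genes were compared as CPM per kilobase of exons. In unstimulated WT, Slc25a37 led at 29.3 ± 0.752, followed by Ppox at 20.1 ± 4.56 and Urod at 11.6 ± 0.429, and Fech was last at 1.01 ± 0.162, overlapping Cpox, which spanned 0.259 to 3.48. Urod, Slc25a38 and Alad came next to each other, and Slc25a38 spanned 5.66 to 14.6, so it was separated from neither. Unstimulated KO ran in another order, with Alad at 29.2 ± 0.643 above Slc25a37 at 25.5 ± 2.53, then Urod at 21.1 ± 1.45 and Cpox at 19.9 ± 1.08, which overlapped. Ppox and Slc25a38, at 14.8 ± 4.57 and 14.6 ± 1.42, overlapped as well, and Alas2 was last at 3.76 ± 0.661, overlapping Fech. With R848, Slc25a37 led the members in both genotypes, at 46.8 ± 7.09 in WT and 61.3 ± 4.37 in KO. Alas2 moved up to 17.8 ± 1.43 in KO, between Cpox and Slc25a38, and was at 1.64 ± 1.28 in WT, where it overlapped Urod and Cpox and where Alad was last at 0. Alas1 exceeded Alas2 in every group, at 75.1 ± 5.35 in KO with R848.

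**Figure D3:**
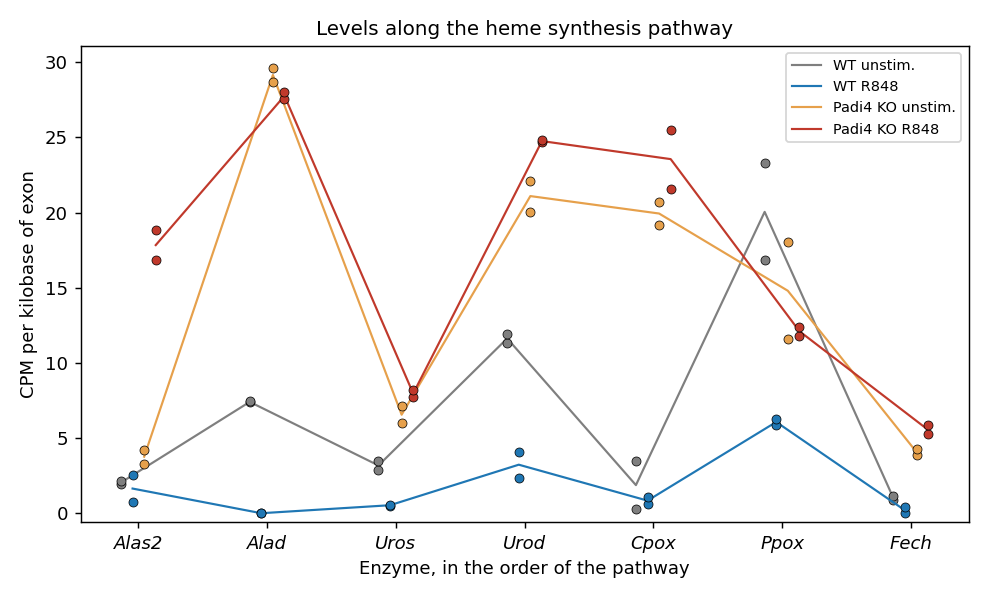
CPM per kilobase of exons for the enzymes in pathway order, without the carriers, with points for libraries and lines joining group means. At Alad and Cpox the KO groups lie high and the WT R848 group at or near 0, while at Ppox the unstimulated groups overlap.

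Other genes of the pathway were read from lists. Of 11 further heme synthesis and carrier genes, WT cells with R848 had 1 called higher (Alas1), where 7.17% of all genes were. They had 2 called lower, where 10.8% of all genes were. Among the latter, Abcb10, which partners mitoferrin, changed by -1.71 (SE 0.55; adjusted p = 0.0101, edgeR). In KO, Alas1 was again the 1 gene called higher, where 8.07% of all genes were, and 1 was called lower, where 8.84% were. Abcb10 changed in KO by 0.41 (SE 0.16; adjusted p = 0.0428, edgeR), under 2-fold. The responses of Abcb10 differed by 2.12 (SE 0.57; adjusted p = 0.0114, edgeR) and those of Tmem14c, a porphyrin carrier, by 0.94 (SE 0.28; adjusted p = 0.0351, edgeR), both higher in KO. These were the 2 of 11 with a higher response in KO, where 3.45% of all genes had one. Alas1 was the 1 with a lower response, where 1.26% of all genes had one. The median of these 11 genes was -0.51 in WT, 0.21 in KO and 0.59 for the difference.

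Of 9 genes of heme use, export and breakdown, 2 were called higher with R848 in both genotypes. Of all genes, 7.17% were called higher in WT and 8.07% in KO. Hmox1, heme oxygenase 1, rose by 2.64 in WT (SE 0.15; adjusted p = 3.26e-66, edgeR) and by 2.56 in KO (SE 0.12; adjusted p = 1.02e-93, edgeR), and its responses differed by -0.08 (SE 0.22; adjusted p = 0.971, edgeR). Blvrb, a biliverdin reductase abundant in red cells, rose by 3.12 in WT and by 1.69 in KO, with a difference of -1.43 (SE 0.43; adjusted p = 0.0339, edgeR). It had 7 and 5 counts in unstimulated WT against 57 and 70 in unstimulated KO. Hccs, which attaches heme to cytochromes, was the 1 gene of this list called lower in WT, where 10.8% of all genes were. Its change was -1.12 (SE 0.50; adjusted p = 0.0875, edgeR). Of 5 heme and iron sensors, Bach1 and Nfe2l2, which repress and induce Hmox1, were called higher in both genotypes, where 7.17% (WT) and 8.07% (KO) of all genes were. Their changes were 1.36 and 2.40 in WT and 1.58 and 2.14 in KO. Of 9 iron-sulfur cluster genes, 1 was called lower in WT, a share near the 10.8% of all genes. It was Nfs1, the cysteine desulfurase, at -1.83 (SE 0.72; adjusted p = 0.0456, edgeR). None was called in KO, where 8.07% of all genes were called higher and 8.84% lower.

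Some markers of other cells moved with some of the members. In bulk RNA, fewer cells of a type and less RNA per cell cannot be told apart. Without Nfe2, which neutrophils also express and which was removed after its values were seen, the erythroid markers summed to 183 to 223 CPM in unstimulated WT, 51.4 to 85.6 in WT with R848, 1647 to 1673 in unstimulated KO, and 2170 to 2223 in KO with R848. The same 4 groups held 70.8 to 92.8, 12.2 to 24.8, 318 to 326 and 368 to 389 CPM of Alad, Uros, Urod, Cpox and Fech together. These 2 sums took the same order over the groups and did not overlap between them, but that holds for the genes so chosen. With Nfe2, the erythroid sum was higher in WT with R848 (597 to 625 CPM) than in unstimulated WT (539 to 575). The sum of all 9 members overlapped in WT, at 347 to 416 CPM unstimulated and 328 to 375 with R848. Of 22 erythroid markers tested, R848 lowered 10 in WT, where 10.8% of all genes were called lower, and 9 had a higher response in KO, where 3.45% of all genes did. In KO 2 of 22 were called higher (Hemgn and Slc4a1), a share near the 8.07% of all genes. The KO over WT rule was met by 20 of 22 without stimulus (13.4% of all genes) and 21 of 22 after R848 (16.6%). Nothing is read from these counts of erythroid markers, because earlier results of these data had shown their direction. Per 100 erythroid marker counts, the 5 enzymes had 41.7 and 38.7 in unstimulated WT, 19.5 and 19.3 in unstimulated KO, 14.3 and 48.3 in WT with R848, and 16.9 and 17.5 in KO with R848. Alas2 had 0.473 and 0.617 per 100 in unstimulated KO and 2.09 and 1.82 in KO with R848, against 2.08 and 2.83 in unstimulated WT and 7.14 and 3.45 in WT with R848. Within KO it was higher with R848 relative to these markers, of which Hemgn and Slc4a1 also rose. Slc25a37 went from 8.51 and 9.96 to 17.8 and 15.8 per 100 in KO. The WT values after R848 rest on 42 and 29 erythroid counts.

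Other marker lists followed other orders. Stromal and endothelial markers went from 206 to 247 CPM down to 39.0 to 48.9 with R848 in WT, and from 447 to 553 down to 47.1 to 55.1 in KO. Megakaryocyte and platelet markers went from 88.1 to 111 down to 21.3 to 22.4 in WT, and from 157 to 178 down to 48.0 to 50.6 in KO. Of the stromal genes, 3 of 6 were called lower in each genotype, and of the megakaryocyte genes 5 of 8 in WT and 4 of 8 in KO, where 10.8% and 8.84% of all genes were called lower. Both sums were thus lower with R848 in KO as well, where the sum of the 5 enzymes was not. Neutrophil markers were at 158500 to 167400 CPM in unstimulated WT and 182500 to 207300 with R848, against 106600 to 109100 and 130700 to 131900 in KO. The summed monocyte and macrophage markers were higher with R848, at 4171 to 4227 CPM in WT and 3780 to 3867 in KO, against 1528 to 1650 and 1931 to 1933. That sum was carried by Adgre1 and Csf1r, and of the 10 genes 3 were called higher and 3 lower in WT, and 3 higher and 4 lower in KO, with medians of -0.83 and -0.80. The B lymphocyte list summed to 53.0 to 67.3 CPM in WT with R848, 88.1 to 109 in unstimulated WT, 114 to 124 in KO with R848, and 143 to 144 in unstimulated KO. Nearly all of that sum was Jchain, which plasma cells express (53 and 58 counts in unstimulated WT, 23 and 31 in WT with R848, 121 and 190 in unstimulated KO, and 119 and 116 in KO with R848). The median response of the 4 genes tested went the other way from the sum, at 0.19 in WT and 0.36 in KO. The eosinophil, basophil and mast cell list lay between 15.6 and 55.7 CPM in all groups. The part of these markers in the members' values was not tested.

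**Figure D4:**
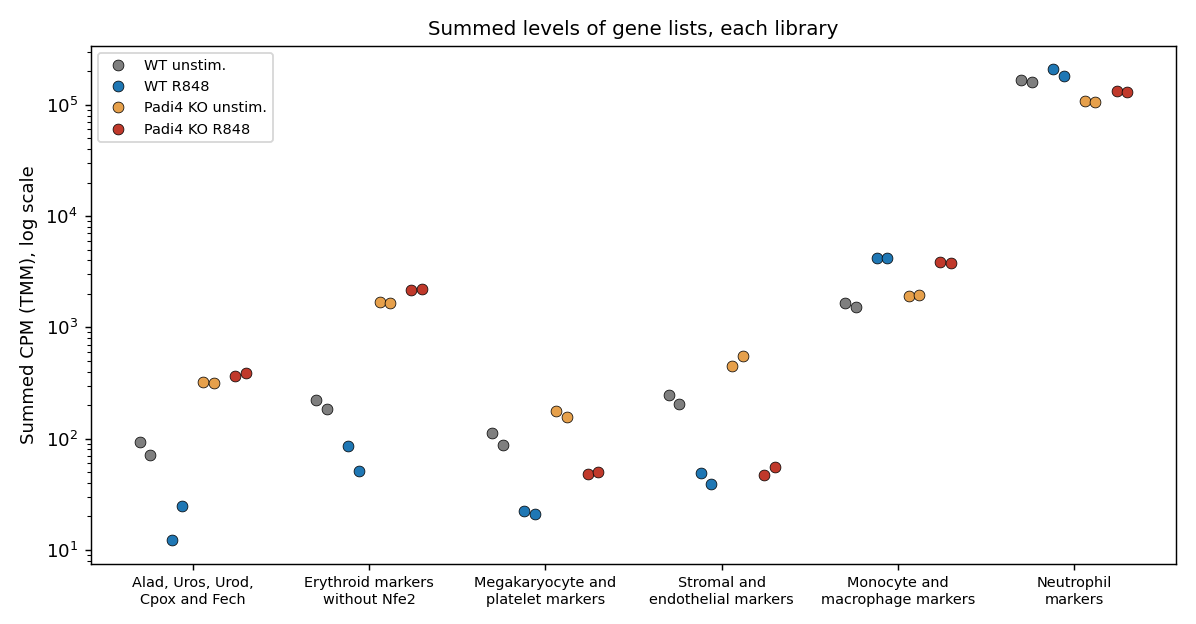
Summed CPM of the 5 enzymes and of the marker lists in each library, on a log axis, with 1 point per library. The 5 enzymes and the erythroid markers without Nfe2 take the same order over the 4 groups (with Nfe2, the erythroid sum is higher in WT with R848 than without), while the stromal and the megakaryocyte lists are low with R848 in both genotypes.

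Over the 8 libraries, the log2 CPM of Alad, Uros and Urod correlated with r of 0.98 to 0.99, and Fech with these at 0.95 to 0.98, as a description over libraries that share groups and depth. Slc25a37 had r between -0.17 and 0.59 with every other member but Ppox (-0.56). Among 6903 genes with at least 10 counts on average, those most like Alas2 were Slbp (r = 0.968), which binds histone mRNA, Rbbp4 (0.966), Slc6a9 (0.964), a glycine transporter, and the tRNA synthetases Cars (0.945) and Aars (0.944). Slc6a9 had 0 and 1 counts in unstimulated WT, 2 and 0 in WT with R848, 5 and 12 in unstimulated KO, and 34 and 34 in KO with R848, the pattern of Alas2. Those most like Slc25a37 were Cpsf2 (0.992), Atox1 (0.988), a copper chaperone, Tnip3 (0.985), Cd300e (0.978) and the chemokine Ccl5 (0.978). Ccl5 was listed at 0 in all 4 unstimulated libraries and reached 11 and 10 counts with R848 in WT, and 82 and 48 in KO.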

How the data were processed

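RNA of 8 libraries was prepared with a TruSeq kit that does not mark strand and sequenced as pairs on a MiSeq. Per the labels and the submitters' processing notes, reads were trimmed with cutadapt 1.16 and the FASTX toolkit, checked with FastQC 0.11.7, aligned to UCSC mm10 with STAR 2.5.3a and counted with HTSeq 0.6.1p1. The annotation and the strand setting are not given in the sources used here. The values are whole-number counts per gene as deposited by the authors, with no normalization. Reads not assigned to a gene, pooled over all HTSeq summary categories given, made up 10.6 to 13.0% of a library and were left out of library sizes.

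Genes with at least 1 count in 2 libraries were tested (12254) with edgeR 4.0.16 (R 4.3.3, limma 3.58.1): TMM scaling, 1 mean per group over all 8 libraries, robust quasi-likelihood F tests and Benjamini-Hochberg adjustment over all genes. Responses were called at an adjusted p below 0.1 and over 2-fold, differences of response at an adjusted p below 0.1. A floor of 3 counts was used for bounds. DESeq2 1.42.0, other scalings and filters, a replicate block, separate models, a stricter threshold and each library left out were alternatives. The code was tested on simulated data. The members and lists were chosen with earlier results of these data known. Named genes were all members, called genes of 4 pathway lists (up to 6 per list), paralogs and the 5 genes most correlated with Alas2 and with Slc25a37; B4galt3 and the marker genes are named for results that turn on them. Some called genes of these lists are not reported here. Positions and exon lengths came from GENCODE M21, near copies from BLAST 2.17.0.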

Additional observations from a re-analysis of the deposited data

Results flagged for a closer look

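For 6 members the response to R848 differed between the genotypes by edgeR's quasi-likelihood test of the difference itself, which brings them here. Alad differed with an adjusted p of 0.00135 and no fitted size, since it was at 0 in WT with R848. The log2 difference, KO minus WT, was 2.755 for Uros, 2.022 for Urod, 1.502 for Ppox, 2.69 for Fech and 0.5829 for Slc25a37. For Uros, Urod, Ppox and Fech the WT libraries were lower with R848 and the KO change did not reach 2-fold, whereas Slc25a37 was higher with R848 in both genotypes. The Uros and Slc25a37 differences were each lost in 7 of 8 fits that left out a library and the Fech difference in 3 of 8. Without WT R848 replicate 1, Urod and Ppox were lost too and Alad alone was called, and DESeq2 called 0 of the 6. Earlier results of these data had shown the direction, so these values are no independent evidence of it. With 2 libraries in each group, none could be checked for standing apart from its group.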

How the results depend on the processing

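In WT, Alad, Urod and Ppox were called under every alternative run (DESeq2 called 4 members, without Uros), and in KO Alas2 was, with Slc25a37 lost by library size alone, which left 1 member. For the difference of response, Alad was called under every edgeR alternative and under no DESeq2 fit, which called 0 members. With 1 library left out, the members called ranged from 3 to 7 in WT, 2 to 2 in KO and 1 to 6 for the difference, and those meeting the KO over WT rule from 3 to 6 without stimulus and 6 to 7 after R848. Leaving 1 library in a group assumes that it varies like the others. Counts of all genes called lower in WT were 1328, and 719 by DESeq2, 2106 by library size alone and 901 to 1311 with a library left out. In KO 989 were higher and 1083 lower, with 599 lower by DESeq2, 624 and 2072 by library size alone, and 745 to 988 and 884 to 1367 with a library left out. For the difference, 423 were higher and 154 lower, against 35 and 90 by DESeq2, 160 and 233 with relative log expression factors, 255 higher by library size alone, and 51 to 293 and 98 to 350 with a library left out. Library size alone lowered the median KO response of all genes from -0.03 to -0.41 and turned the KO responses of Uros (-0.12), Urod (-0.16), Cpox (-0.13) and Slc25a38 (-0.25), and the unstimulated KO gap of Slc25a37 (0.10). Leaving out a library gave values of both signs for the WT responses of Cpox (-2.002 to 1.64), Slc25a38 (-1.01 to 0.35) and Alas2 (-1.27 to 0.41), the KO responses of Ppox (-0.57 to 0.062), Cpox (-0.0013 to 0.29) and Slc25a38 (-0.086 to 0.25), and the differences of Cpox (-1.39 to 2.25) and Slc25a38 (-0.23 to 1.13). None of the values of turned sign was called, and the cause was not tested. The replicate block called 5 members in WT, 2 in KO and 6 for the difference, as without it, and replicate differences correlated between groups at -0.02 to 0.02, so the numbers do not pair the samples. With 0 to 6 counts per WT library with R848 for Alas2, Alad, Uros, Urod, Cpox and Fech, depth limits the size of their WT changes.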
